A study of Drosophila melanogaster with 72 samples.

Results

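The 9 pair-rule genes even-skipped (eve), fushi tarazu (ftz), hairy (h), runt (run), odd-skipped (odd), paired (prd), odd-paired (opa), sloppy paired 1 (slp1) and sloppy paired 2 (slp2) were followed through RNA-seq of early Drosophila melanogaster embryos and of larvae. They were picked by name from the 16680 genes listed for each library, and all 9 were found in each of the 72 libraries, which form 36 groups of 2 in 6 experiments. In the first experiment embryos labelled mutant with IntS11 mislocalized were set against their wild type, and in another the same was done for IntS9, both with collections at 0 to 0.5 h, 1 to 1.5 h and 2.5 to 3 h. A knockdown of IntS11 was set against wild type at the same windows, and alpha-amanitin, a toxin that blocks RNA polymerase II, against control embryos at the later windows. A rescue experiment held 4 kinds of embryo at 1 to 1.5 h and 2.5 to 3 h: IntS11 mislocalized embryos, embryos labelled as rescued with Flag-tagged IntS11 carrying E203Q, embryos rescued with Flag-tagged wild-type IntS11, and wild type. Larvae of a zygotic mutant and of wild type were sampled 24 h, 48 h and 72 h after egg laying. The labels do not name the gene mutated in those larvae, the driver or hairpin of the knockdown, the promoter of the Flag transgenes, or how IntS11 and IntS9 were mislocalized. Nor do they say that replicates came from separate collections, so the p-values below measure the spread between these libraries, which may be technical.

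IntS11 is the endonuclease of the Integrator complex, which cuts nascent RNA made by RNA polymerase II, and IntS9 is its partner subunit. Pair-rule genes are among the earliest genes that the embryo itself transcribes. Maternal and gap gene proteins set their expression in stripes across the cellularizing blastoderm, and their products, all transcription factors, in turn position the stripes of the segment polarity genes. The repressors h, eve and run head the hierarchy, ftz and odd are patterned early as well, prd and the slp genes follow, and opa is expressed in a broad domain rather than in stripes and sets the timing of the switch to the segmental pattern.

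The genes lie on 5 chromosome arms in the dm6 assembly. On 2L were odd (2L:3604224-3606756, minus strand), slp1 (2L:3825675-3827099, plus strand), slp2 (2L:3836840-3839185, plus strand) and prd (2L:12082995-12085827, minus strand). On 3R were opa (3R:4852813-4869979, plus strand) and ftz (3R:6864324-6866244, plus strand). The remaining members were h, whose current symbol is hry (3L:8675759-8679253, plus strand), run (X:20690670-20697321, plus strand) and eve (2R:9979319-9980795, plus strand). An antisense RNA overlaps eve by 266 bases and another overlaps prd by 179 bases. The first had at most 30 counts in any embryo library and the second at most 2.

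Libraries held 2061575 to 26074431 expected counts. Depth was uneven in the knockdown experiment, with 10415095 to 12468983 in knockdown and 2061575 to 2590455 in its wild type, and the 7SL RNA took 15.7% to 25.5% of the knockdown counts against 4.14% to 7.02% in that wild type. Knockdown libraries also held 204 to 1407 CPM (counts scaled to library size) summed over 10 larval marker genes, depending on the window, against 0 to 10.9 CPM in their wild type. IntS11 RNA served as a check of the knockdown and rescue labels. It fell by 3.84 ± 0.15, 4.07 ± 0.15 and 2.76 ± 0.13 (log2 ± SE) in knockdown embryos at the 3 windows. In the larval mutant, whose label names no gene, it fell by 1.63, 1.37 and 2.15 at 24, 48 and 72 h. In the rescue experiment Flag IntS11 E203Q and Flag IntS11 WT embryos carried like amounts of IntS11 RNA, 2461 and 2332 CPM at 2.5 to 3 h, against 175 CPM in mislocalized and 178 CPM in wild type embryos. RNA levels do not show where a protein sits; in the first experiment IntS11 RNA changed by -0.39 to -0.73 on the log2 scale.

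All 9 genes were highest at 2.5 to 3 h in wild type and control embryos. Over 10 libraries from 5 experiments at 2.5 to 3 h, levels per transcript length, in TPM (length-normalized transcript abundance), had medians of 91.4 for ftz, 73.9 for opa, 61.8 for eve, 50.2 for prd, 48.2 for run, 35.9 for slp1, 33.3 for odd, 32.7 for h and 7.81 for slp2. ftz was the highest and slp2 the lowest in 10 of 10 libraries. Neighbours in the middle of that order could not be separated: opa was above eve, prd above run, slp1 above odd, and odd above h in 6 of 10 libraries each. slp1 and slp2, neighbouring genes that encode closely related forkhead proteins, thus had very different levels.

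The rise between windows was large in every experiment. From 1 to 1.5 h to 2.5 to 3 h all 9 genes rose in each of the 5 wild type or control series, where 43.5%, 41.7%, 40.8%, 50.5% and 43.1% of all genes tested rose in the IntS11, IntS9, knockdown, alpha-amanitin and rescue experiments. Median log2 changes of the 9 genes were 3.10, 4.11, 4.03, 5.75 and 3.25 in that order. opa rose the most in the IntS11 experiment, to 358 and 429 CPM at 2.5 to 3 h, against 15.5 and 20.2 CPM at 1 to 1.5 h (log2 change 4.46 ± 0.13, adjusted p 6.17e-14). The starting level differed between experiments. Wild type embryos at 1 to 1.5 h of the IntS11 experiment had 37.1 and 35.5 CPM of ftz, whereas the alpha-amanitin controls had 4.89 and 4.23 CPM. The 7 cellularization genes summed to 2260 to 2317 CPM in that wild type and to 252 to 260.5 CPM in those controls, and their part in the levels was not tested.

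Earlier, between 0 to 0.5 h and 1 to 1.5 h, wild type series moved in different directions. In the IntS11 experiment 8 genes rose (15.5% of all genes did) and opa did not pass the test (0.17 ± 0.15). In the IntS9 experiment slp1 and slp2 rose by 0.64 ± 0.10 and 1.32 ± 0.16, while ftz, prd, opa and eve fell by 1.01 ± 0.10, 1.00 ± 0.13, 0.71 ± 0.09 and 0.35 ± 0.11 (16.2% of all genes rose and 25.0% fell). ftz, for instance, had 9.95 and 9.96 CPM at 1 to 1.5 h against 19.2 and 21.0 CPM at 0 to 0.5 h. The 0 to 0.5 h wild type libraries of that experiment held 589 to 608 CPM of the 7 blastoderm markers and 74.6 to 80.6 CPM of the 10 larval markers, against 387 to 402 CPM and at most 0.0787 CPM in wild type of the IntS11 experiment. The part of these markers in the levels at 0 to 0.5 h was not tested. In the knockdown experiment ftz, run and opa rose, where 0.95% of all genes did; without a filter on low counts, and with the windows fitted alone, 5 genes did.

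**Figure D1:**
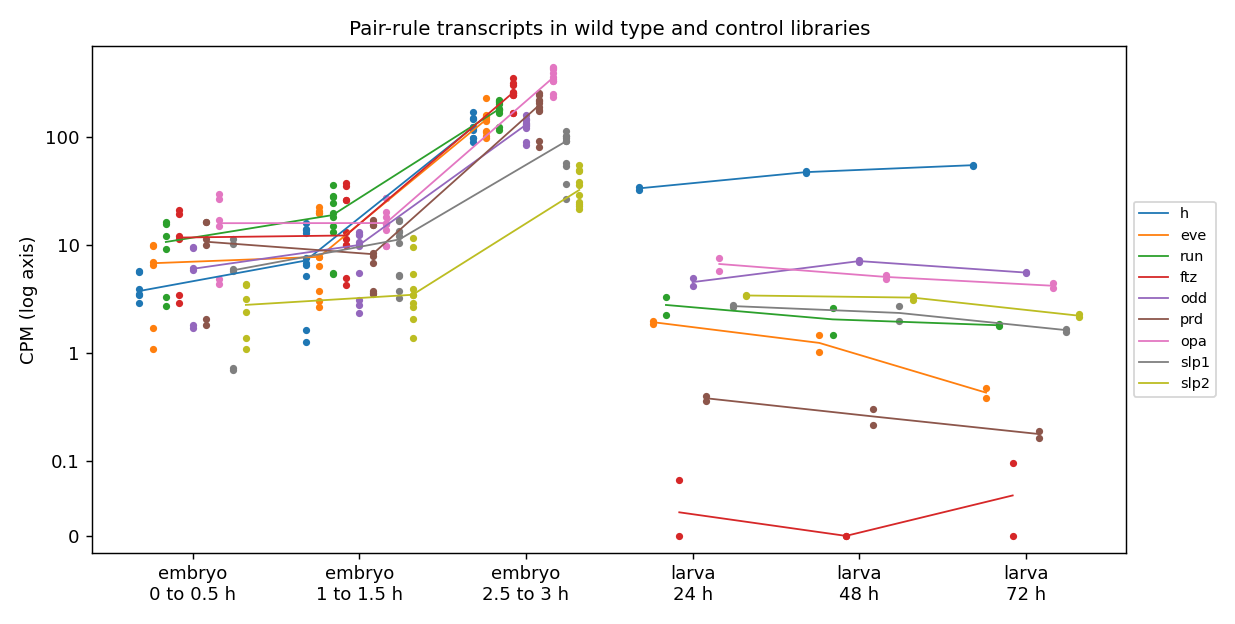
Level of each pair-rule gene in CPM on a log axis in every wild type and control library (points) by window, with lines through the medians and 0 drawn on the lowest line; embryos are left and larvae right. Every gene is highest at 2.5 to 3 h, where opa, for instance, had a median of 353 CPM against 15.9 CPM at 1 to 1.5 h.

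All 9 genes were lower in IntS11 mislocalized embryos than in wild type at every window. At 2.5 to 3 h their levels were 1.60% to 6.40% of wild type (median 5.20%), with a median log2 change of -4.27 where the median of all 8804 genes was -0.38. All 9 were called lower by edgeR's quasi-likelihood test at a Benjamini-Hochberg adjusted p under 0.05, as were 53.2% of all genes tested. The 9 were called lower at 0 to 0.5 h and 1 to 1.5 h as well, where 14.8% and 24.6% of all genes were, with median changes of -2.54 and -3.28. At 0 to 0.5 h 10 segment polarity genes summed to 9.49 to 10.4 CPM in mislocalized embryos against 90.4 to 97.0 CPM in wild type. The 7 cellularization genes summed to 326 to 337 CPM against 387 to 402 CPM. The part of these markers in the calls at that window was not tested. In bulk embryos, fewer cells of a type and less RNA per cell cannot be told apart.

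opa fell the most. It had 5.64 and 6.93 CPM in IntS11 mislocalized embryos at 2.5 to 3 h, against 358 and 429 CPM in wild type (-5.96 ± 0.15, adjusted p 1.08e-14). ftz, which encodes a homeodomain activator, had 5.58 and 5.09 CPM against 305 and 316 CPM (-5.86 ± 0.11). slp2 had 1.25 and 1.13 CPM against 38.4 and 48.7 CPM (-5.19 ± 0.22). These changes were larger than those of the other members. In no member did the mislocalized libraries reach the wild type ones, and the share of all genes so separated was not counted.

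The genes run, eve, h, odd, prd and slp1 fell by less and by like amounts. run, a Runx protein, had 9.16 and 9.12 CPM in mislocalized embryos against 201 and 223 CPM in wild type (-4.53 ± 0.14). eve, a homeodomain repressor, had 9.72 and 8.59 CPM against 158 and 159 CPM (-4.11 ± 0.12), and h, a basic helix-loop-helix repressor, had 5.20 and 7.88 CPM against 90.4 and 117 CPM (-3.98 ± 0.17). The zinc finger gene odd had 6.58 and 7.64 CPM against 121 and 144 CPM (-4.22 ± 0.12). prd, a paired-domain activator, had 14.2 and 11.8 CPM against 244 and 256 CPM (-4.27 ± 0.11), and slp1 had 6.83 and 6.99 CPM against 102 and 114 CPM (-3.96 ± 0.11).

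The mislocalized embryos still raised these transcripts with time. From 1 to 1.5 h to 2.5 to 3 h all 9 rose (22.0% of all genes did), by 1.61 ± 0.18 for ftz to 2.52 ± 0.27 for opa. opa, for example, reached 5.64 and 6.93 CPM, against 1.21 and 0.960 CPM at the window before. Between 0 to 0.5 h and 1 to 1.5 h odd, prd and slp1 rose by 0.74, 0.65 and 0.83 (17.4% of all genes rose), but none did with DESeq2 and 1 did with DESeq2's size factors or with the windows fitted alone. Leaving out 1 of the 4 libraries left 0 to 2 genes called.

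Maternal RNA was higher and blastoderm RNA lower than in wild type in the same libraries. The summed level of 8 maternal markers was 3037 to 3364 CPM in IntS11 mislocalized embryos at 2.5 to 3 h against 347 to 388 CPM in wild type. It had fallen from 5032 to 5034 CPM in mislocalized embryos at 1 to 1.5 h. The sum over 7 cellularization genes at 2.5 to 3 h was 793 to 814 CPM against 6893 to 7201 CPM. None of these 15 markers was at 0 in both libraries of either group. Their part in the pair-rule result was not tested.

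**Figure D2:**
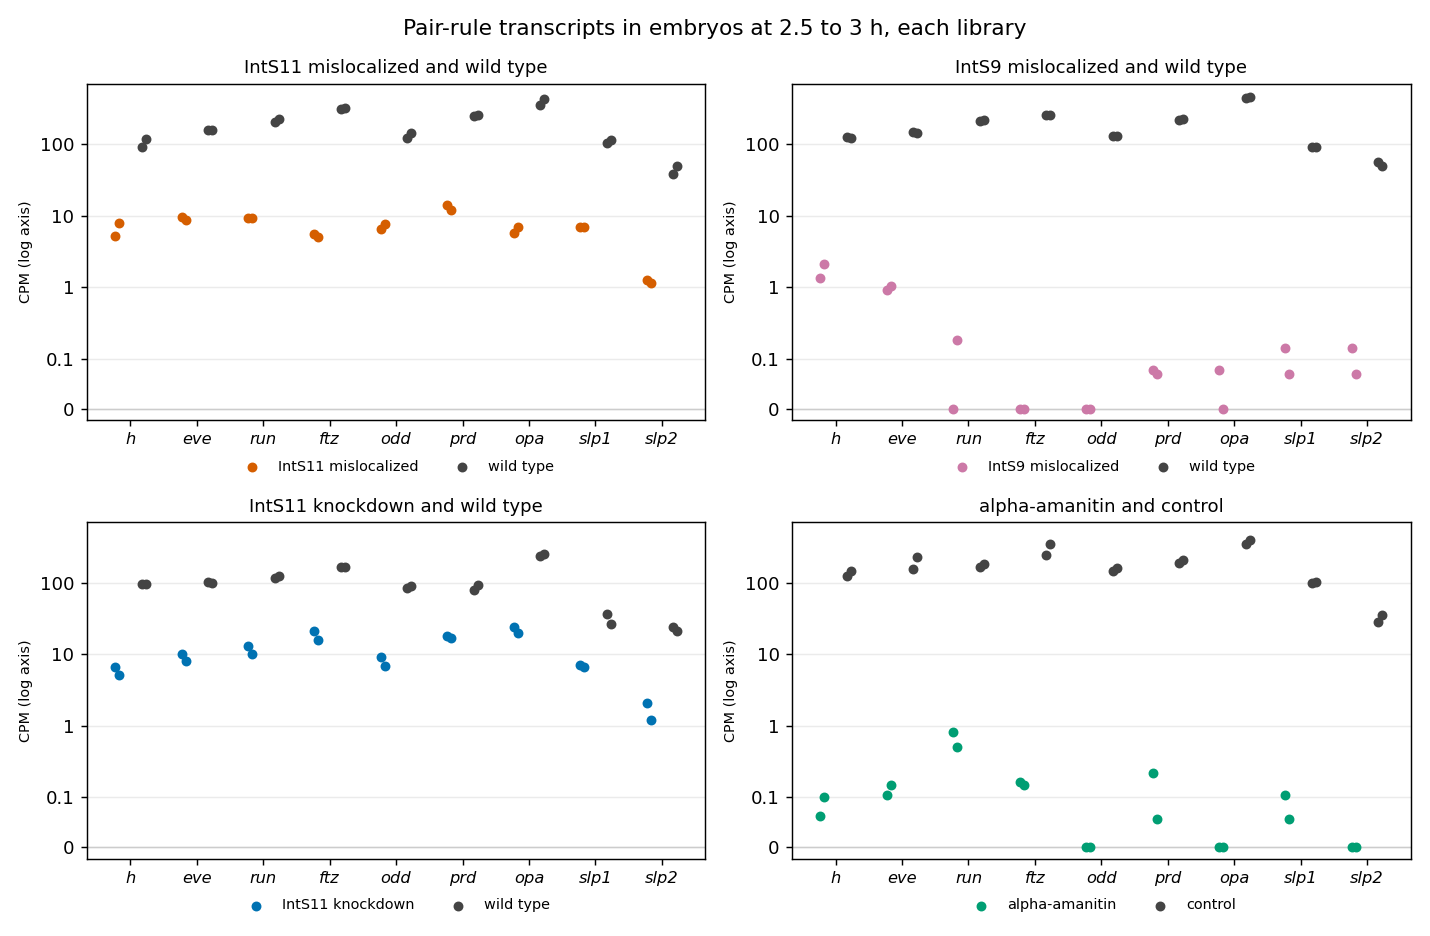
CPM of each pair-rule gene on a log axis at 2.5 to 3 h, 1 point per library, with the perturbed embryos left of their wild type or control and 0 drawn on the lowest line. No perturbed library reached its wild type or control in any of these genes, and the share of all genes so separated was not counted. ftz and odd were at 0 in both IntS9 mislocalized libraries, and odd, opa and slp2 in both alpha-amanitin libraries.

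Mislocalization of IntS9 brought most of these transcripts to or near 0. Levels at 2.5 to 3 h were 0% to 1.4% of wild type (median 0.0436%), and all 9 genes were called lower, where 43.0% of 9217 genes were. The median log2 change was -10.97 as fitted and -10.36 with genes at 0 counts set at the bound that 3 counts over the group give; that of all genes was -0.02. ftz had 0 counts in both mislocalized libraries at all 3 windows, against 259 and 257 CPM in wild type at the last, and was at least 2618-fold lower there. odd, also at 0 and 0, was at least 1318-fold lower, its wild type having 131 and 129 CPM. opa had 1 count over both libraries (0.0706 and 0 CPM) against 434 and 449 CPM, a ratio of 7.4e-05 with a counting interval of 1.9e-06 to 0.000415 (exact, 95%, counting error only).

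h and eve stood apart from the rest before 2.5 h. At 0 to 0.5 h h had 4.53 and 4.18 CPM in IntS9 mislocalized embryos against 5.70 and 5.57 CPM in wild type. It was the 1 gene not called by edgeR (-0.37 ± 0.15, adjusted p 0.0511). The h change passed with DESeq2, with DESeq2's size factors, with no filter and with the window fitted alone. The other 8 were lower, where 26.5% of all genes were. Later, at 1 to 1.5 h, h had 5.65 and 4.67 CPM against 7.57 and 6.53 CPM (-0.46 ± 0.14, adjusted p 0.00979; 28.2% of all genes were lower), a call lost without mislocalized replicate 2 or wild type replicate 1 (adjusted p 0.128 and 0.112). eve had 1.76 and 1.71 CPM against 9.81 and 9.95 CPM at 0 to 0.5 h, and 1.90 and 1.88 CPM against 7.75 and 7.74 CPM at 1 to 1.5 h. The other 7 genes were at or under 1.01 CPM in every IntS9 mislocalized library. The 10 larval markers summed to 28.7 to 30.1 CPM in IntS9 mislocalized embryos at 0 to 0.5 h, against 74.6 to 80.6 CPM in wild type. At 1 to 1.5 h they summed to 15.2 to 18.9 CPM against at most 0.0634 CPM. The part of these markers in the h and eve levels was not tested.

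By 2.5 to 3 h h and eve had fallen too. h had 1.34 and 2.09 CPM against 124 and 121 CPM in wild type (-6.13 ± 0.14), and eve 0.917 and 1.05 CPM against 148 and 141 CPM (-7.19 ± 0.12). In these embryos no gene was called higher between 1 to 1.5 h and 2.5 to 3 h: h, eve and prd fell by 1.55 ± 0.20, 0.93 ± 0.23 and 2.68 ± 0.84 (36.0% of all genes fell). The maternal markers summed to 3672 to 4200 CPM in IntS9 mislocalized embryos at 2.5 to 3 h against 475 to 477 CPM in wild type, and the cellularization genes to 333 to 363 CPM, with 3 of 7 at 0, against 7559 to 7630 CPM. Their part was not tested.

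The 2 mislocalization effects differed in a joint fit of both experiments. At 2.5 to 3 h the IntS9 effect was the more negative for all 9 genes, as for 17.3% of all genes, with log2 differences of -2.35 ± 0.27 for h to -9.995 ± 0.53 for odd. The IntS9 effect at 1 to 1.5 h was more negative for 7 genes (17.9% of all) and less so for h and eve, by 2.83 ± 0.31 and 1.15 ± 0.23 (19.4% of all). Values for genes at 0 counts depend on the prior count of the fit, and the experiments had separate wild types.

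Knockdown of IntS11 lowered all 9 genes at the 2 later windows and 6 of them at the first. Levels at 2.5 to 3 h were 6.02% to 21.6% of wild type (median 9.21%; median log2 change -3.43, all genes 0.07), and all 9 were called lower, where 36.0% of 9681 genes were. h fell the most, with 6.68 and 5.07 CPM in knockdown against 97.4 and 97.6 CPM in wild type (-4.04 ± 0.17). prd and slp1 fell the least: prd had 18.2 and 17.0 CPM against 80.3 and 92.3 CPM (-2.29 ± 0.15), and slp1 7.13 and 6.62 CPM against 36.9 and 26.7 CPM (-2.21 ± 0.22). opa had 24.0 and 19.7 CPM against 234 and 252 CPM (-3.47 ± 0.13), and ftz 20.9 and 16.1 CPM against 166 and 169 CPM (-3.17 ± 0.14).

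The remaining genes fell by like amounts at that window. run had 13.2 and 10.1 CPM in knockdown against 116 and 124 CPM in wild type (-3.35 ± 0.15), and eve 9.97 and 8.05 CPM against 103 and 98.8 CPM (-3.48 ± 0.16). odd had 9.24 and 6.84 CPM against 84.3 and 90.3 CPM (-3.43 ± 0.18). slp2 had 2.10 and 1.21 CPM against 24.0 and 21.5 CPM (-3.74 ± 0.31). No knockdown library reached its wild type in any of the 9 genes, and the share of all genes so separated was not counted. Within knockdown embryos ftz, odd, prd and opa rose between 0 to 0.5 h and 1 to 1.5 h (11.1% of all genes did), and from then to 2.5 to 3 h all 9 rose (29.4%), by 1.62 for h to 3.79 for slp1.

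Earlier windows had few counts in the shallow wild type. At 1 to 1.5 h all 9 were lower (31.0% of all genes; median -2.56), between -1.04 ± 0.32 for eve and -3.73 ± 0.76 for slp2; the eve call was lost without wild type replicate 1 (adjusted p 0.340). At 0 to 0.5 h ftz, odd, prd, opa, run and slp2 were lower (29.6% of all genes). ftz had 0.124 and 0 CPM there against 3.42 and 2.92 CPM in wild type, or 1 count against 18 (ratio 0.0183, counting interval 0.00044 to 0.116). odd had 2 counts against 10 (ratio 0.0659, 0.00702 to 0.309) and slp2 1 count against 7 (ratio 0.0471, 0.00104 to 0.367). eve did not differ beyond its spread, with 1.49 and 1.54 CPM against 1.71 and 1.09 CPM (0.10 ± 0.52), and h (-0.90 ± 0.40, adjusted p 0.0584) and slp1 (-1.52 ± 0.92, adjusted p 0.162) did not pass. h passed with DESeq2's size factors, with total counts or without knockdown replicate 1 (adjusted p 0.0378), and run (-1.42 ± 0.43) was lost without wild type replicate 2 (adjusted p 0.0853). run and slp2 were lost when knockdown counts were thinned to the depth of wild type.

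The knockdown series held other tissue or stage signals. Wild type at 2.5 to 3 h had 2403 to 2437 CPM of 18 markers of older embryos, against 381 to 648 CPM in the other wild types and controls, and 161 to 166 CPM in knockdown. Larval markers summed to 1152 to 1407 CPM in knockdown at that window, with none of the 10 at 0, against 8.51 to 10.9 CPM in wild type. Their part in the pair-rule values was not tested.

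Against IntS11 mislocalization in a joint fit, the knockdown effect at 2.5 to 3 h was weaker for ftz, opa, prd, slp1 and run by 2.07 ± 0.19, 1.87 ± 0.20, 1.35 ± 0.18, 1.12 ± 0.22 and 0.56 ± 0.21 (29.2% of all genes differed in that direction), and stronger for h (difference -0.68 ± 0.25; 31.2% of all). The run and h differences were lost when 1 of several single libraries was left out (adjusted p 0.0512 to 0.318 for run and 0.109 to 0.403 for h). The h difference was also lost with DESeq2 (adjusted p 0.221) and with its size factors (0.141), and the run difference with total counts (0.0666). slp2 passed with DESeq2 and its size factors (adjusted p 0.0476 and 0.0278). The knockdown effect at 1 to 1.5 h was weaker for eve, ftz and h, by 1.70 ± 0.36, 1.37 ± 0.34 and 1.21 ± 0.44 (22.8% of all genes). The h difference was lost without knockdown replicate 1, mislocalized replicate 1 or wild type replicate 2 of the knockdown experiment (adjusted p 0.0649 to 0.0864). With DESeq2 and with its size factors opa also passed there (adjusted p 0.0402 and 0.0323).

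Embryos under alpha-amanitin held almost no pair-rule RNA. Treated embryos at 2.5 to 3 h had 0% to 0.378% of control levels (median 0.0574%), and all 9 genes were called lower, where 49.7% of 8517 genes were. The median log2 change was -10.62 as fitted and -10.48 with genes at 0 counts set at their bound, and that of all genes was -0.23. odd, opa and slp2 were at 0 in both treated libraries, against 146 and 160, 348 and 395, and 28.7 and 35.9 CPM in controls, and were at least 1933-fold, 4677-fold and 404-fold lower. run kept the most, 0.815 and 0.505 CPM against 169 and 181 CPM (-8.04 ± 0.13), and was the 1 gene that rose from 1 to 1.5 h to 2.5 to 3 h under the toxin (1.02% of all genes rose). It had 25 counts there against 2 at the earlier window, a ratio of 12.03 with a counting interval of 3.00 to 105, and was not called with the windows fitted alone, without either earlier replicate or without replicate 1 of 2.5 to 3 h.

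All 9 genes were lower at 1 to 1.5 h as well (17.9% of all genes; median -8.13 as fitted and -5.81 with genes at 0 at their bound). ftz, odd, prd and slp1 were at 0 in both treated libraries and at least 56.3-fold, 31.6-fold, 44.9-fold and 63.5-fold lower. h had 0.0545 and 0 CPM against 1.25 and 1.64 CPM in controls, and eve 0.109 and 0 CPM against 3.02 and 2.66 CPM. Thus h at 1 to 1.5 h lay near 0 under alpha-amanitin, whereas it stood at 5.65 and 4.67 CPM in IntS9 mislocalized embryos; the control level also differed between those experiments, and this difference was not tested. Maternal markers summed to 5336 to 5450 CPM in treated embryos at 2.5 to 3 h against 806 to 884 CPM in controls, and their part was not tested.

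**Figure D3:**
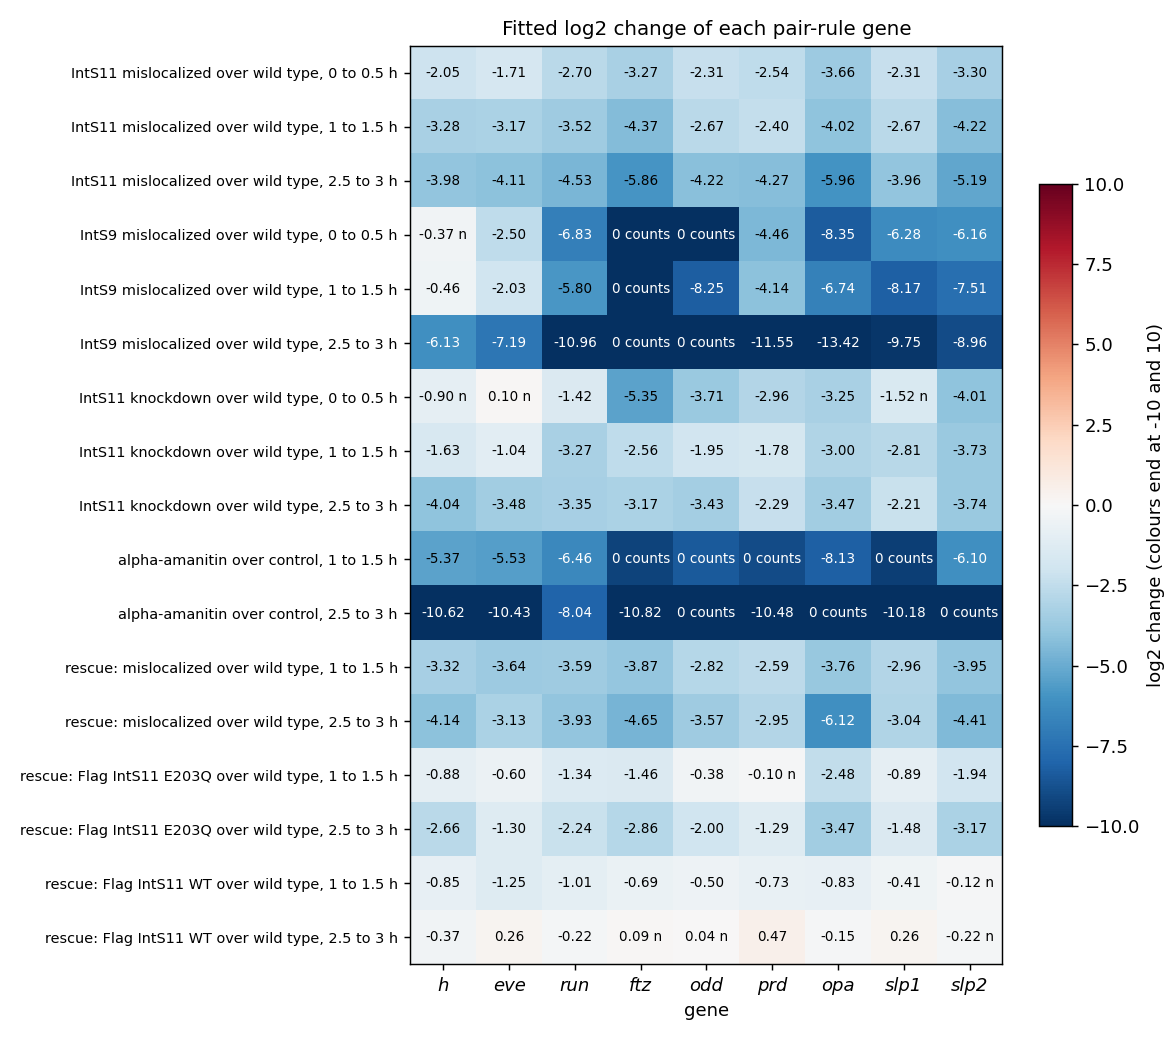
Fitted log2 change of each pair-rule gene (columns) in each comparison and window (rows), blue for lower and red for higher; n marks values that did not pass the test and 0 counts marks genes with no count in either perturbed library. The bottom rows, Flag IntS11 WT over wild type, are pale, between -1.25 and 0.47, while the mislocalization, knockdown and toxin rows are mostly below -1.5.

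The rescue experiment repeated the mislocalization and added Flag-tagged IntS11. Mislocalized embryos had 1.43% to 12.9% of wild type levels at 2.5 to 3 h (median 6.58%), and all 9 genes were lower at both windows, where 41.1% and at 1 to 1.5 h 18.7% of all 9156 genes were (median log2 changes -3.93 and -3.59; all genes 0.00 and 0.10). opa again fell the most, with 4.69 and 4.74 CPM against 330 and 329 CPM in wild type at 2.5 to 3 h (-6.12 ± 0.09), and prd the least, with 22.4 and 23.2 CPM against 177 and 176 CPM (-2.95 ± 0.06). Between the windows all 9 rose in mislocalized embryos (30.1% of all genes did), by 1.23 for opa to 3.05 for prd. Maternal markers summed to 3636 to 3715 CPM in mislocalized embryos at 2.5 to 3 h against 701 to 732 CPM in wild type, and their part was not tested. Set against the first experiment in a joint fit, the effect at 1 to 1.5 h did not differ past the threshold for any gene, with differences between -0.59 ± 0.30 and 0.39 ± 0.27 (33.8% of all genes differed). By edgeR 0 genes passed, 0 at an unadjusted p under 0.05, and by DESeq2 0. Without rescue mislocalized replicate 2 eve differed (-1.32, adjusted p 0.00872).

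The fall at 2.5 to 3 h in the rescue experiment was smaller for prd, ftz, eve and slp1, by 0.94 ± 0.11, 0.83 ± 0.15, 0.61 ± 0.17 and 0.55 ± 0.15 (21.1% of all genes), and larger for opa and h (differences -0.54 ± 0.19 and -0.53 ± 0.20; 19.7% of all). Calls for h, opa, eve and slp1 depended on single libraries: leaving out 1 left 3 to 6 of the 6 differences called. The eve call was lost without rescue mislocalized replicate 2 and the slp1 call without rescue mislocalized replicate 1 (adjusted p 0.0872 and 0.0544), while the h call was lost in 5 of the 8 cases and the opa call in 4. The h call was also lost with DESeq2 (adjusted p 0.0612) and total counts (0.0791), and the opa call with total counts (0.0557).

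Flag IntS11 WT brought the 9 genes back to about wild type by 2.5 to 3 h. All 9 were higher than in mislocalized embryos at both windows (10.2% and 39.1% of all genes were at 1 to 1.5 h and 2.5 to 3 h), with median log2 changes of 2.54 and 3.70. Their levels at 2.5 to 3 h were 77.3% to 139% of wild type (median 103%). prd, eve and slp1 were higher than in wild type by 0.47 ± 0.05, 0.26 ± 0.08 and 0.26 ± 0.08 (28.4% of all genes were higher), h, run and opa were lower (-0.37 ± 0.07, -0.22 ± 0.06 and -0.15 ± 0.06; 16.1% of all were), and ftz, odd and slp2 did not pass. prd had 246 and 242 CPM in Flag IntS11 WT embryos against 177 and 176 CPM in wild type, and h 117 and 131 CPM against 150 and 171 CPM. Only the prd and h calls held without each of the 4 libraries in turn, and 2 to 4 of the 6 calls were left. The eve and slp1 calls were also lost with DESeq2 (adjusted p 0.142 and 0.239), with its size factors (0.0946 and 0.106) and with total counts (0.0897 and 0.101), and the opa call without a filter on low counts (0.132). The lowest count, 2, was without Flag IntS11 WT replicate 2, and 3 were left without wild type replicate 2.

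The rescue was partial at 1 to 1.5 h. Levels in Flag IntS11 WT embryos were 42.0% to 91.8% of wild type (median 60.1%), and 8 genes were lower (14.9% of all genes), between -0.41 ± 0.12 for slp1 and -1.25 ± 0.13 for eve. eve had 8.77 and 8.10 CPM against 19.7 and 20.5 CPM in wild type, and 0.961 and 2.20 CPM in mislocalized embryos. slp2 did not pass (-0.12 ± 0.21), with 3.74 and 2.59 CPM against 3.45 and 3.44 CPM. Single libraries decided the slp1 call (Flag IntS11 WT replicate 2 or wild type replicate 2 left out, adjusted p 0.102 and 0.166) and the odd call (wild type replicate 1 left out, adjusted p 0.0607).

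**Figure D4:**
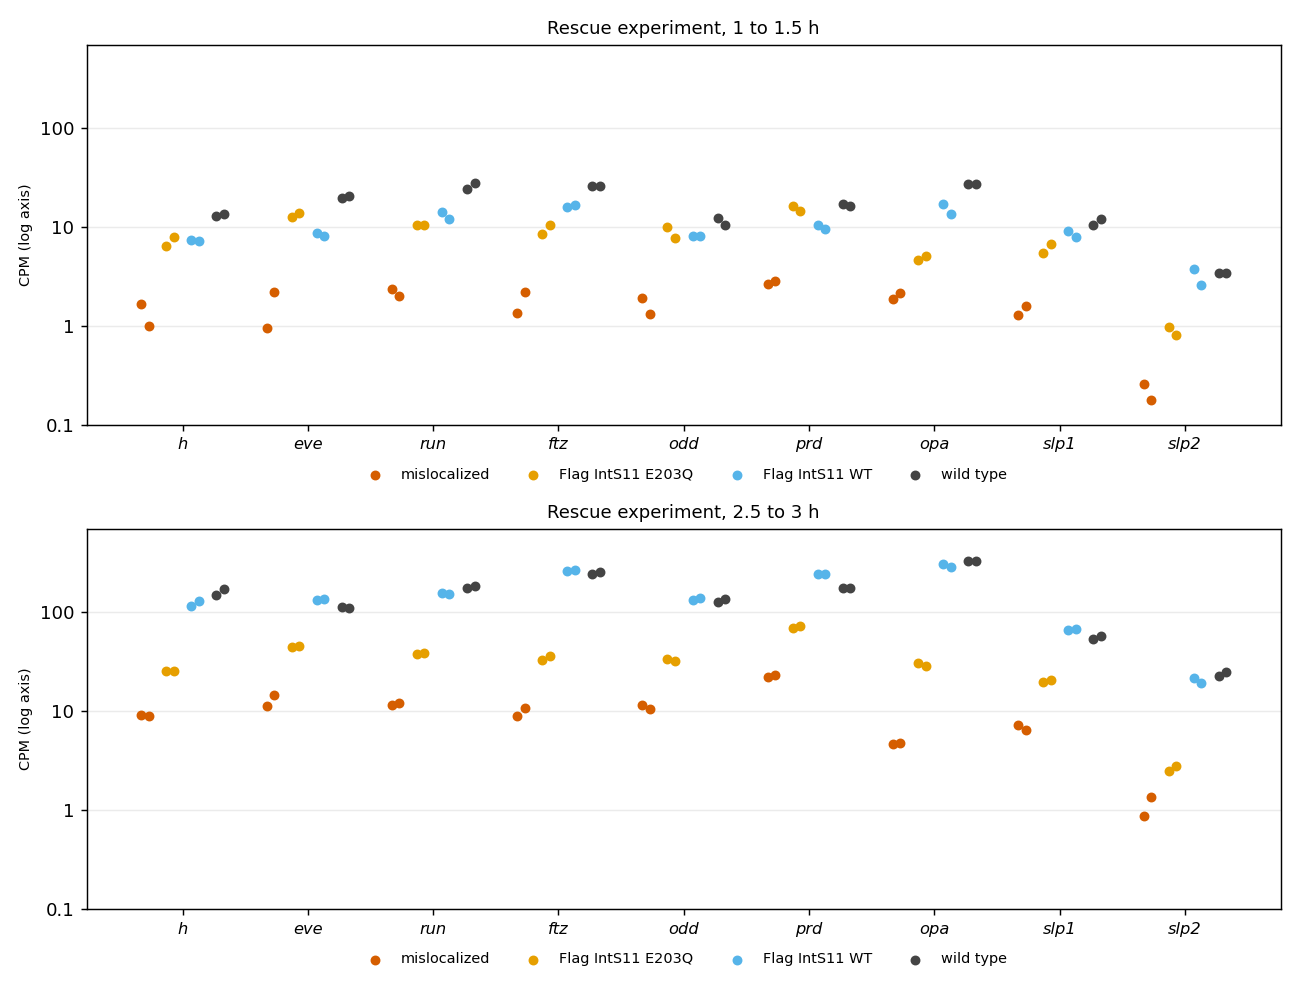
CPM of each pair-rule gene on a log axis in the rescue experiment, 1 point per library, at 1 to 1.5 h (top) and 2.5 to 3 h (bottom); for each gene the order is mislocalized, Flag IntS11 E203Q, Flag IntS11 WT and wild type. At 1 to 1.5 h eve and prd are higher in E203Q than in Flag IntS11 WT, as were 19.4% of all genes tested. At 2.5 to 3 h all 9 genes in E203Q lie between mislocalized and Flag IntS11 WT.

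E203Q changes a residue of the IntS11 catalytic centre, and this construct was set against the wild-type construct. At 2.5 to 3 h all 9 genes were lower in Flag IntS11 E203Q than in Flag IntS11 WT embryos, at 10.04% to 33.8% of its levels (median 24.2%; median log2 change -2.05, all genes 0.00), where 37.7% of all genes were lower. opa had 31.0 and 28.6 CPM in E203Q against 306 and 287 CPM in Flag IntS11 WT (-3.31 ± 0.07, adjusted p 1.17e-21). slp2 had 2.50 and 2.79 CPM against 21.5 and 19.5 CPM (-2.96 ± 0.16), and ftz 32.8 and 36.2 CPM against 261 and 270 CPM (-2.95 ± 0.07). opa, slp2 and ftz showed the largest changes, as in IntS11 mislocalized embryos of the first experiment.

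The smaller falls were those of h, odd, run, prd, slp1 and eve. h had 25.5 and 25.4 CPM in E203Q against 117 and 131 CPM in Flag IntS11 WT (-2.28 ± 0.08). odd had 33.5 and 32.4 CPM against 134 and 138 CPM (-2.05 ± 0.08), and run 38.2 and 38.5 CPM against 157 and 152 CPM (-2.01 ± 0.07). prd kept 70.3 and 73.5 CPM against 246 and 242 CPM (-1.77 ± 0.06). slp1 had 19.6 and 20.5 CPM against 66.9 and 67.5 CPM (-1.74 ± 0.09), and eve 44.7 and 46.2 CPM against 134 and 136 CPM (-1.57 ± 0.09).

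At 1 to 1.5 h calls went both ways, and the share called higher was near that of all genes. eve and prd were higher in E203Q than in Flag IntS11 WT (19.4% of all genes were): eve had 12.7 and 13.8 CPM against 8.77 and 8.10 CPM (0.65 ± 0.14, adjusted p 0.000692), and prd 16.3 and 14.6 CPM against 10.4 and 9.53 CPM (0.63 ± 0.10). opa, slp2, ftz, slp1 and run were lower (26.2% of all genes): opa had 4.63 and 5.08 CPM against 17.0 and 13.4 CPM (-1.65 ± 0.13), slp2 0.982 and 0.806 CPM against 3.74 and 2.59 CPM (-1.83 ± 0.27), and ftz 8.56 and 10.5 CPM against 16.0 and 16.7 CPM (-0.77 ± 0.12). h and odd did not pass (-0.03 ± 0.15 and 0.12 ± 0.13). The slp1 and run calls (-0.47 ± 0.14 and -0.33 ± 0.11) were lost with the window's 2 groups fitted alone; slp1 was also lost without replicate 1 of either construct (adjusted p 0.118 and 0.0709), and run without either E203Q replicate or Flag IntS11 WT replicate 1 (adjusted p 0.0578, 0.0688 and 0.184).

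The change between windows was tested as an interaction, a test chosen after the values were seen. The E203Q effect was lower at 2.5 to 3 h than at 1 to 1.5 h for all 9 genes (30.4% of all genes), most for prd (-2.39 ± 0.11) and eve (-2.22 ± 0.16) and least for slp2 (-1.13 ± 0.35, lost without E203Q replicate 1 of 1 to 1.5 h, adjusted p 0.0785). Between those windows the 9 genes rose by 1.56 to 2.61 in E203Q embryos (37.7% of all genes rose) and by 2.69 to 4.61 in Flag IntS11 WT embryos (39.4% rose).

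**Figure D5:**
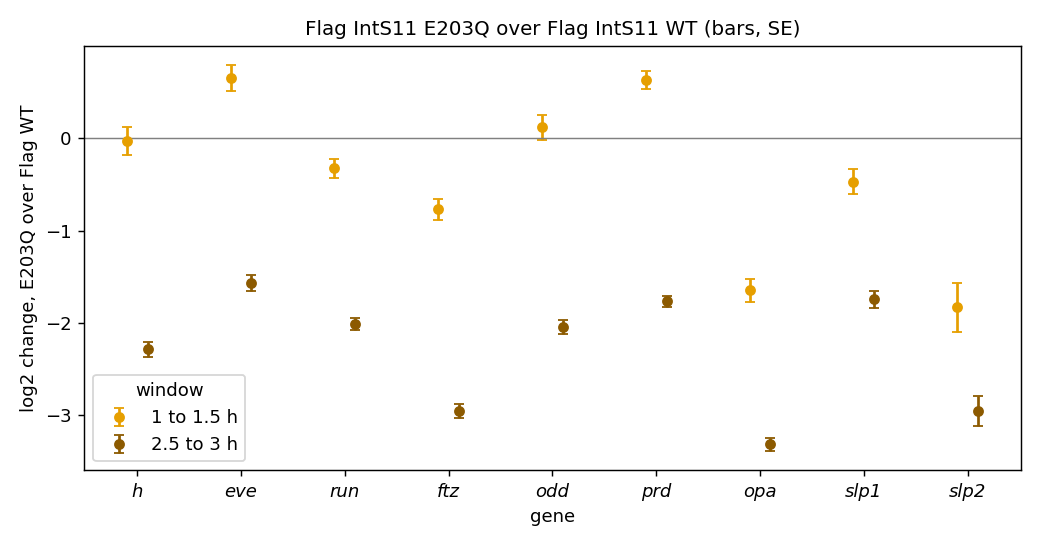
Log2 change of each pair-rule gene in Flag IntS11 E203Q over Flag IntS11 WT embryos at 1 to 1.5 h (light) and 2.5 to 3 h (dark), with bars for the SE and a line at 0. The early values run between -1.83 and 0.65, and the late ones between -3.31 and -1.57.

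E203Q embryos still exceeded mislocalized ones in all 9 genes. Median log2 changes were 2.41 at 1 to 1.5 h and 1.66 at 2.5 to 3 h, where 17.2% and 25.5% of all genes were higher. At 2.5 to 3 h opa had 31.0 and 28.6 CPM in E203Q against 4.69 and 4.74 CPM in mislocalized embryos (2.66 ± 0.11), and slp2 2.50 and 2.79 CPM against 0.873 and 1.36 CPM (1.23 ± 0.25). Against wild type, E203Q embryos had 9.03% to 40.8% of its levels at 2.5 to 3 h, with all 9 genes lower (37.9% of all genes); at 1 to 1.5 h 8 were lower (21.6%) and prd did not pass (-0.10 ± 0.09), and the odd call (-0.38 ± 0.13) was lost without E203Q replicate 2 or wild type replicate 1 (adjusted p 0.304 and 0.165). Maternal markers summed to 2746 to 2876 CPM in E203Q at 2.5 to 3 h against 625 to 629 CPM in Flag IntS11 WT, and the cellularization genes to 4044 to 4170 CPM against 11818 to 11943 CPM. Larval markers summed to 10.95 to 11.6 CPM, with 4 of 10 at 0, against 0.485 to 1.00 CPM, with 7 at 0. At 1 to 1.5 h the cellularization genes summed to 1247 to 1251 CPM in E203Q and 1178 to 1224 CPM in Flag IntS11 WT. Their part was not tested.

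In wild type larvae, long after the stripes have gone, h was the highest of the 9 genes per length, with median levels of 11.6, 12.1 and 9.06 TPM at 24, 48 and 72 h; no other gene had a median above 1.77 TPM. h also acts in sensory organ and eye development. It had 65.5 and 68.2 CPM in the zygotic mutant at 72 h against 55.6 and 54.1 CPM in wild type (0.29 ± 0.06, adjusted p 0.000606). eve had 1.94 and 1.20 CPM against 0.474 and 0.378 CPM (1.86 ± 0.38, adjusted p 0.000273). These 2 of 7 genes tested were higher, a share near the 26.6% of 11409 genes that were. ftz and prd, at or under 0.399 CPM in every larval library, did not pass the filter on low counts, and run, odd, opa, slp1 and slp2 did not pass the test at 72 h.

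By edgeR 0 genes were called at 24 h or 48 h, 0 of them at an unadjusted p under 0.05, and 0 by DESeq2, where 4.42% and 13.8% of all genes were lower and 5.55% and 16.0% higher. Without zygotic mutant replicate 2 opa was called lower at 48 h (-1.16, adjusted p 0.0244); the libraries there had 2.25 and 4.87 CPM against 4.84 and 5.25 CPM in wild type. IntS11 was lower in the mutant at each time, as given above. Summed over 10 larval genes, the mutant had 2627 to 2875 CPM at 72 h against 5377 to 5615 CPM in wild type, a difference whose part in the values of h and eve was not tested.

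Genes around the pair-rule step were read from lists set by their textbook roles. Of 11 genes on the gap list, the step upstream, 10 were lower and 1, cnc, was higher at 2.5 to 3 h. This held in each of IntS11 mislocalized, IntS9 mislocalized, knockdown and alpha-amanitin embryos. The list was not purely zygotic, as its RNA summed to 534 to 557 CPM under alpha-amanitin against 1656 to 1873 CPM in controls. The gap gene knrl had a mean of 0.244 CPM in IntS11 mislocalized embryos against 41.0 CPM in wild type (-7.34 ± 0.28), kni 3.98 against 112 CPM (-4.82 ± 0.14), and ems 2.10 against 42.2 CPM (-4.32 ± 0.18). Their median change there was -3.82. Of 10 segment polarity genes, the step downstream, all 10 were lower in each of the 4 (median -4.33 in IntS11 mislocalized embryos). The Hedgehog pathway factor ci had 15.1 CPM against 410 CPM (-4.76 ± 0.15), and the homeobox gene en 1.86 against 42.6 CPM (-4.51 ± 0.16). These lists thus moved as the pair-rule genes did. Of all genes 53.2%, 43.0%, 36.0% and 49.7% were lower in IntS11 mislocalized, IntS9 mislocalized, knockdown and alpha-amanitin embryos. In the same order 30.1%, 40.4%, 39.7% and 40% of all genes were higher.

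Relatives and chromosomal neighbours were lower too. In IntS11 mislocalized embryos at 2.5 to 3 h all 6 tested of 9 listed were lower (median -3.72), among them sob, a relative of odd (0.634 against 28.6 CPM, -5.46 ± 0.22), and the Hox genes of the complex that holds ftz, Antp (1.98 against 32.5 CPM, -4.03 ± 0.22) and Scr (0.0923 against 11.1 CPM, with 3 counts against 238). Cofactors divided, with 6 lower and 1 higher of 8. Beside both lists, 53.2% of all genes tested were lower and 30.1% higher in that comparison. Bro, the partner of run, had 6.82 CPM against 88.6 CPM (-3.70 ± 0.15), whereas ftz-f1, the nuclear receptor partner of ftz, had 217 CPM against 54.7 CPM (1.98 ± 0.13).

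Activators and maternal genes were read beside the 53.2% of all genes that were lower and the 30.1% that were higher in IntS11 mislocalized embryos at 2.5 to 3 h. Of 4 early activators 2 were lower and 2 higher, a share of lower calls near that of all genes. Trl, the GAGA factor, changed by -0.74 ± 0.12 and zld (listed as vfl), the main activator of the early zygotic genome, by -0.66 ± 0.12 (566 against 897 CPM), while Stat92E was higher by 0.53 ± 0.10. The median change of all genes there was -0.38, and -0.02 with total counts. The activator calls were not rerun with another scaling, so how far they depend on it is not known. Of 6 maternal coordinate genes 5 were higher and hb, which is also a gap gene, was lower; bcd had 262 CPM against 23.9 CPM (3.45 ± 0.10) and cad 150 against 26.9 CPM (2.48 ± 0.11).

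In E203Q against Flag IntS11 WT at 2.5 to 3 h, where 37.7% of all genes were lower and 37.4% higher, 10 gap genes were lower and cnc higher (median -1.77), and 8 segment polarity genes were lower, gsb higher and inv not called (median -1.49). knrl again had the largest change of its list, 1.29 CPM in E203Q against 25.6 CPM in Flag IntS11 WT (-4.32 ± 0.18). ci had 43.4 against 331 CPM (-2.93 ± 0.08) and Scr 0.424 against 4.75 CPM (-3.48 ± 0.33). The neighbours numbered 6 lower and 1, lz, higher.

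Across the 30 embryo groups the members' profiles ran close. Over the 36 pairs of members Pearson's r between group means of log2(CPM + 1) was 0.905 to 0.992, with a median of 0.969. The genes nearest to the members' average among 7863 genes were Doc1 and twi (0.994 each), salm (0.992), sog (0.989) and CG7884 (0.989). Nearest to a single member were gt for eve (0.987), twi for ftz, run and odd (0.993, 0.994 and 0.993), odd for prd (0.992), gk for h (0.978), Sr-CII for opa and slp1 (0.989 and 0.986) and Galphas for slp2 (0.990). The points share their libraries and most of the spread comes from the rise to 2.5 to 3 h, so these values are descriptive.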

How the data were processed

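Total RNA depleted of ribosomal RNA was sequenced as strand-specific libraries, per the labels' protocols. RSEM 1.3.1, the aligner STAR 2.7.10a, Trimmomatic 0.39 for trimming, DESeq2 1.40.2 and the build dm6 are named in the submitters' processing notes; the strand setting of the counting is not stated there. Per the file headers, the authors deposited for each library RSEM expected counts, TPM and FPKM values per gene, normalized to length and depth. Expected counts were rounded (the 648 member values were whole as deposited) and fitted per experiment with edgeR 4.0.16 (R 4.3.3): TMM scaling, filterByExpr, robust quasi-likelihood tests and Benjamini-Hochberg adjustment over all genes, with a threshold of 0.05. SE is the absolute log2 change divided by the square root of F. CPM is counts over TMM-scaled library size. The deposited TPM served to order genes; the deposited FPKM were not used. A fold against 0 counts is a bound at 3 counts over the group. Differences between effects came from joint fits. Positions are from the Ensembl BDGP6.54 annotation, which uses dm6 coordinates; h is listed there as hry and zld in the files as vfl. The tests were also run on simulated data in which few genes changed. In some comparisons here most genes were called, so that run cannot judge the scaling or the calls in them. Members and gene lists were chosen with earlier results of these data known; the members are all named, and from each list at most 3 genes, those with the largest called change and separate libraries. Alternatives were DESeq2 1.42.0, its size factors, total counts, no filter, 2 groups alone, a replicate block, thinning, 7SL removal and leaving out each library. Whether replicate numbers pair samples was checked over 44 comparisons: correlations of same-numbered deviations were -0.246 to 0.393, with 8 above 0.1, and no pairing was used.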

Additional observations from a re-analysis of the deposited data

Results flagged for a closer look

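Effects on the pair-rule genes differed between experiments in joint fits, by the quasi-likelihood test of edgeR after Benjamini-Hochberg adjustment. The values are differences of log2 changes, so that a negative one means a larger fall in the experiment named first. For IntS9 minus IntS11 mislocalization at 1 to 1.5 h they were 1.15 for eve, -5.84 for ftz, 2.83 for h, -2.26 for run, -5.52 for odd, -1.72 for prd, -2.70 for opa, -5.46 for slp1 and -3.25 for slp2. At 2.5 to 3 h they were -3.28 for eve, -9.34 for ftz, -2.35 for h, -6.63 for run, -9.995 for odd, -7.47 for prd, -7.65 for opa, -5.98 for slp1 and -3.96 for slp2. The slp2 difference at 1 to 1.5 h was lost without IntS11 mislocalized replicate 1 (adjusted p 0.192), and values for genes at 0 counts depend on the prior count of the fit.

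For knockdown minus IntS11 mislocalization they were 1.70 for eve, 1.37 for ftz and 1.21 for h at 1 to 1.5 h, and 2.07 for ftz, -0.68 for h, 0.56 for run, 1.35 for prd, 1.87 for opa and 1.12 for slp1 at 2.5 to 3 h. The h differences at both windows and the run difference were lost without some single libraries. At 2.5 to 3 h h was also lost with DESeq2 and with its size factors, and run with total counts. For mislocalization in the rescue experiment minus that in the IntS11 experiment they were 0.61 for eve, 0.83 for ftz, -0.53 for h, 0.94 for prd, -0.54 for opa and 0.55 for slp1 at 2.5 to 3 h. Here the eve, h, opa and slp1 differences were lost without some single libraries. The h difference was also lost with DESeq2 and with total counts, and the opa difference with total counts. Each experiment had its own wild type, so experiment and effect cannot be told apart.

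For the Flag IntS11 E203Q effect over Flag IntS11 WT at 2.5 to 3 h minus that at 1 to 1.5 h they were -2.22 for eve, -2.18 for ftz, -2.25 for h, -1.69 for run, -2.16 for odd, -2.39 for prd, -1.67 for opa, -1.27 for slp1 and -1.13 for slp2, all within 1 experiment. That interaction test was chosen after the values were seen. Its slp2 difference was lost without E203Q replicate 1 of 1 to 1.5 h. In larvae no difference between times was tested.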

How the results depend on the processing

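No result reversed under any alternative run. Counts of pair-rule genes called stayed within 1.5 times of the reported value except these. For IntS11 mislocalized embryos between 0 to 0.5 h and 1 to 1.5 h the count, 3 as reported, was 0 with DESeq2, 1 with its size factors, 1 with 2 groups alone and 0 to 2 without single libraries. For knockdown wild type between those windows it was 5 with no filter and 5 with 2 groups alone, against 3. For alpha-amanitin between windows it was 0 with 2 groups alone and 0 to 1 without single libraries, against 1. Leaving out single libraries gave 2 to 4 for Flag IntS11 WT over wild type at 2.5 to 3 h, against 6; 0 to 1 for larvae at 48 h and 0 to 1 for the rescue experiment minus IntS11 at 1 to 1.5 h, against 0; and 3 to 6 for that difference at 2.5 to 3 h, against 6. Over all counts, 220 of 232 values without single libraries stayed within that range. With the replicate number as a block, the counts for IntS11 mislocalized embryos and for knockdown wild type between the first windows were 4 and 4, against 3 and 3, and no other count changed. Scaling moved the median log2 change of all genes by -0.296 to 0.39 with DESeq2's size factors and by -0.618 to 0.358 with total counts. The share of all calls that were higher moved by over 10 points in several comparisons. For IntS11 mislocalized embryos at 2.5 to 3 h it was 36.2%, and 49.4% with total counts. For the knockdown it was 57.1%, 57.4% and 52.4% at the 3 windows, and 35.3%, 41.5% and 40.02% with total counts; DESeq2's size factors gave 55.8%, 56.6% and 41.7%. In the rescue experiment DESeq2's size factors and total counts gave 47.7% and 49.4% for mislocalized over wild type at 1 to 1.5 h, against 64.9%. They gave 46.3% and 47.1% for Flag IntS11 WT over wild type at 2.5 to 3 h, against 63.8%, and 49.8% and 67.8% for E203Q over mislocalized at 1 to 1.5 h, against 39.4%. For mislocalized embryos between windows they gave 60.3% and 61.3%, against 47.6%. At 1 to 1.5 h DESeq2's size factors alone moved Flag IntS11 WT over mislocalized to 67.1%, against 42.2%, E203Q over wild type to 44.5%, against 56.1%, and knockdown minus IntS11 to 53.9%, against 40.5%. Total counts alone moved E203Q over Flag IntS11 WT to 67.4%, against 42.5%, and Flag IntS11 WT over wild type to 44.3%, against 65.6%. Comparisons between windows moved too, among them 1 to 1.5 h over 0 to 0.5 h. There total counts gave 72.0% for knockdown, against 38.8%, and DESeq2's size factors 24.6% for IntS11 wild type, against 47.9%. From 1 to 1.5 h to 2.5 to 3 h those size factors gave 54.2% for IntS11 mislocalized embryos, against 39.0%. Depth limits the knockdown experiment most, whose wild type had few counts of these genes before 2.5 h. The causes were not tested.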
